A study of Mus musculus with 150 samples.

Results

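The genes described here are 10 targets of p53 that act in apoptosis, namely Bbc3, Bax, Pmaip1, Fas, Tnfrsf10b, Perp, Trp53inp1, Aen, Zmat3 and Apaf1. They were taken by symbol, without regard to their measured values, and all 10 were present among the 24341 rows of the bulk expression table and the 31175 genes of the single-cell tables. The study asked how airway epithelial progenitor cells of the mouse lung behave with and without p53. The bulk knockout group (KO, replicates 7, 8 and 10) came from mice with the alleles p53flox/flox, and the bulk wild-type group (WT, replicates 1, 5 and 6) from mice with p53+/+. All of these mice also carried the Cre driver Scgb1a1-CreERTM and the reporter Rosa26-mT/mG, and all received tamoxifen. In this design Cre is active in Scgb1a1-expressing cells, the club cells of the airway, and the GFP+ EpCAM+ cells that were sorted had to lack CD31, CD34 and CD45. The mice were 8 to 12 weeks old. The protocol places the sort 70 days after tamoxifen, whereas the library titles name day 30. The single cells came from 1 Fluidigm C1 chip labelled p53-/- and 1 chip labelled wild type, with tamoxifen given at 250 mg/kg. For these cells the labels do not settle whether the deletion was germline or induced, or whether the cells were fresh or cultured.

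When p53 is activated by DNA damage or other stress, it raises the transcription of genes that push a cell towards death. Bbc3 (Puma) and Pmaip1 (Noxa) encode BH3-only proteins that neutralise the protective members of the Bcl-2 family, and Bax encodes the protein that then opens the outer mitochondrial membrane. Apaf1 binds the released cytochrome c and assembles the apoptosome, which activates caspase-9. Fas and Tnfrsf10b encode death receptors at the cell surface, and Perp encodes a membrane protein that takes part in apoptosis and in desmosomes. Trp53inp1, Aen and Zmat3 encode a nuclear stress protein that promotes p53 activity, a nuclease that digests DNA and an RNA-binding zinc finger protein. Most of these genes are also transcribed at a basal level that does not need p53.

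Bulk values are FPKM, in which fragment numbers are scaled by gene length and library size. The read number of a library is not stored in FPKM. Estimated from the steps between low values, in 1e6 reads, it was 13, 26 and 6.4 in the KO libraries and 45, 36 and 22 in the WT libraries, so KO values mostly rest on fewer reads. Trp53, the targeted gene, had 8.63, 9.98 and 7.56 FPKM in the KO libraries, against 16.6, 22.2 and 21.7 FPKM in the WT libraries. All 3 KO libraries lay below all 3 WT libraries (log2 fold change -1.12, SE 0.149, limma adjusted p = 0.144). WT replicate 1 stood apart from replicates 5 and 6. Its summed level of 12 club cell markers was 34847.5 FPKM, below the other WT libraries (99215 and 105388) and the KO libraries (73866 to 93706). Its summed level of 17 alveolar type 2 markers was 18200 FPKM, above the other WT libraries (11721 and 12574) and the KO libraries (10041 to 10930). Summed ciliated cell markers were 1518 to 2286 FPKM in KO libraries and 797 to 1515 in WT libraries, with replicate 1 highest among WT. Summed immune cell markers were 129 to 172 FPKM in KO libraries and 224 to 240 in WT libraries, although CD45+ cells were gated out; Ptprc, which encodes CD45, had at most 2.64 FPKM in KO and 4.12 FPKM in WT. Summed endothelial markers were 76.5 to 115 FPKM in KO and 105 to 136 in WT, with Pecam1 (CD31) at most 0.557 FPKM, and summed fibroblast and smooth muscle markers were 44.9 to 56.7 FPKM in KO and 50.0 to 117 in WT. The part of these markers in the results below was not tested. In bulk samples fewer cells of a type and less RNA per cell cannot be told apart.

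Bbc3 was the member that separated the genotypes in bulk. It had 4.35, 4.90 and 5.29 FPKM in KO libraries, against 9.80, 12.2 and 11.7 FPKM in WT libraries. The highest KO library lay well below the lowest WT library. The mean was 4.85 ± 0.471 FPKM in KO and 11.2 ± 1.25 FPKM in WT (SD, n = 3 each), so the KO mean was 0.432 of the WT mean, the same ratio as for Trp53. On the log2(FPKM + 1) scale, which understates the change of low genes, KO minus WT came to -1.06 (SE 0.122), with a 95% interval of -1.35 to -0.77. Its unadjusted limma p of 5.79e-05 ranked 6 among 11957 tested genes. With Benjamini-Hochberg adjustment it was 0.110, so Bbc3 did not pass the threshold of 0.05 with all 6 libraries. An exact permutation test (two-sided) gave 0.1, the lowest p attainable with 3 libraries a group. Without WT replicate 1 Bbc3 fell to a log2 fold change of -1.15 and passed (limma adjusted p = 0.00982), while leaving out any other library gave -0.998 to -1.11 and no pass. Bbc3 lies at chr7:16308393-16318205 on the plus strand (GRCm38), and an estimated 55 to 200 reads in KO libraries and 420 to 710 in WT libraries stand behind its values.

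Pmaip1, which encodes the other BH3-only protein of the set, was the lowest of the 10 genes. It had 0.561, 0.620 and 0.574 FPKM in KO libraries, against 1.13, 0.606 and 0.693 FPKM in WT libraries. WT replicate 1 was the highest library by a wide margin, and the other 2 WT values lay near the KO values. With only 1 library at 1 FPKM or more it was below the expression filter (at least 1 FPKM in at least 3 libraries) and entered no fit across genes. Its exact two-sided permutation p was 0.2. An estimated 9.3 to 40 reads per KO library and 39 to 130 per WT library leave little precision at this level.

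Bax, the effector at the mitochondrion, was among the most abundant members. It had 36, 41.2 and 47.1 FPKM in KO libraries, against 36.5, 52.7 and 82.3 FPKM in WT libraries. The WT libraries spread more widely than the KO libraries, and WT replicate 1 lay inside the KO range. The log2 fold change was -0.39 (SE 0.279, limma adjusted p = 0.598). It was -0.67 without WT replicate 1 and -0.09 without WT replicate 6, so its size rested on these libraries. The deposited values of WT replicate 6 lack the label "second" that those of all other bulk libraries carry. The meaning of this label is not given, and its part in the values was not tested. Bax lies at chr7:45461697-45466898 on the minus strand and shares 192 nucleotides of exon with the predicted gene Gm45808 on the same strand, so a part of its reads may be split between both.

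Apaf1, the scaffold of the apoptosome, was near the detection limit of the filter. It had 1.30, 1.35 and 0.910 FPKM in KO libraries, against 1.94, 1.27 and 1.41 FPKM in WT libraries. WT replicate 1 was the highest value, and the other WT values overlapped those of KO (log2 fold change -0.21, limma adjusted p = 0.627). The gene spans chr10:90989311-91082770 on the minus strand.

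The membrane proteins did not separate the genotypes. Fas, the receptor for Fas ligand at chr19:34290666-34327772, had 8.86, 8.91 and 7.68 FPKM in KO libraries, against 7.62, 12.2 and 9.09 FPKM in WT libraries. Its KO values lay within the WT range (log2 fold change -0.14, limma adjusted p = 0.767), and the sign turned without WT replicate 5 (0.02). Tnfrsf10b, the mouse receptor for the death ligand Trail at chr14:69767472-69784411, had 1.69, 1.85 and 2.20 FPKM in KO libraries, against 1.16, 1.36 and 2.12 FPKM in WT libraries. Only WT replicate 6 reached the KO range (log2 fold change 0.21, limma adjusted p = 0.667). Perp, at chr10:18845020-18857073, had 46.5, 65.8 and 50.0 FPKM in KO libraries, against 33.3, 61.3 and 43.3 FPKM in WT libraries. The groups overlapped (log2 fold change 0.26, limma adjusted p = 0.696); without WT replicate 1 the fold change was 0.05, and it was -0.06 when libraries were weighted by limma's arrayWeights.

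The nuclear and RNA-binding members also overlapped between genotypes. Trp53inp1, at chr4:11156431-11174379, had 19.2, 13.8 and 12.0 FPKM in KO libraries, against 22.8, 15.1 and 15.2 FPKM in WT libraries. WT replicate 1 and KO replicate 7 were its highest libraries (log2 fold change -0.23, limma adjusted p = 0.708). Aen, the nuclease gene at chr7:78895854-78911209, had 12.4, 14.7 and 13.5 FPKM in KO libraries, against 8.42, 13.3 and 15.6 FPKM in WT libraries. WT replicate 1 was the lowest library, and without it the log2 fold change of 0.15 turned to -0.09 (limma adjusted p = 0.808 with all libraries). Zmat3, at chr3:32334792-32366014 on the minus strand, had 1.23, 0.911 and 1.09 FPKM in KO libraries, against 0.887, 1.80 and 1.74 FPKM in WT libraries. WT replicates 5 and 6 lay above all KO libraries and replicate 1 below them (log2 fold change -0.23, limma adjusted p = 0.653).

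**Figure D1:**
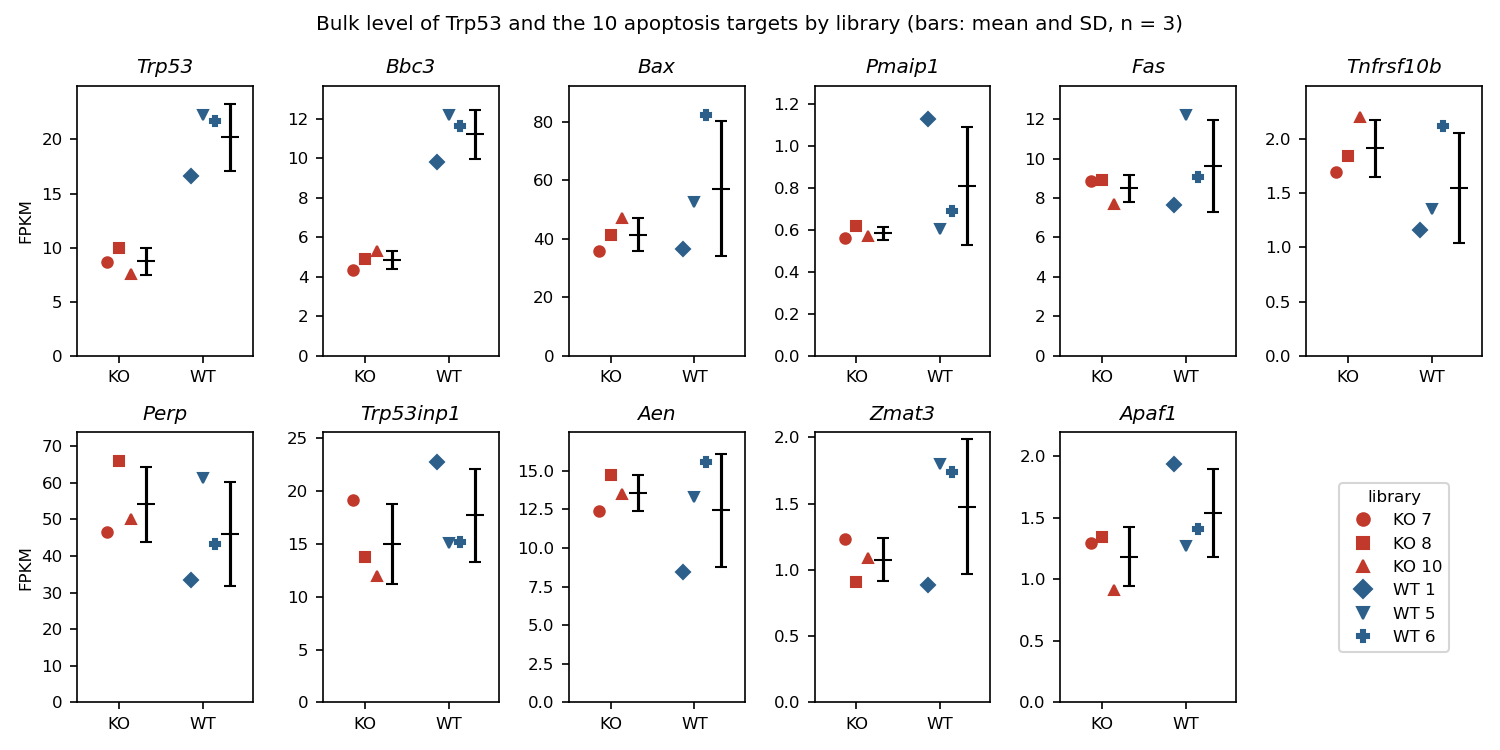
Level in FPKM (vertical axes, linear from 0) of Trp53 and each of the 10 genes in the 3 KO libraries and the 3 WT libraries, with mean and SD beside them. Trp53 and Bbc3 are the panels in which every KO point lies under every WT point; WT replicate 1 (diamond) is the lowest WT library in 7 of the 10 targets and the highest in 3.

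Counted together, 9 of the 10 members were tested and 0 passed the threshold, where 1 gene among 11957, or 0.00836%, was called over all genes. At an unadjusted p under 0.05, 1 member (Bbc3) was lower and 0 were higher, against 6.06% of all tested genes lower and 7.04% higher. The libraries did not overlap for 1 member, again Bbc3, with KO below WT, where 10.2% of all tested genes had KO below and 9.04% KO above. Of the 9, 6 had a negative fold change, and the median log2 fold change was -0.21, against 0.01 over all tested genes. Bbc3 alone was called lower without WT replicate 1, when 0.594% of all genes were, and with arrayWeights (log2 fold change -1.16, limma adjusted p = 0.00583), when 2.17% were. No member was called higher in either fit, where 2.82% of all genes were called higher without WT replicate 1 and 5.47% with arrayWeights. Without WT replicate 1, KO lay below WT in 4 members, Bbc3, Bax, Fas and Zmat3, where 17.3% of all genes had KO below and 18.3% KO above. Over the fits that left out 1 library each, the fold changes of Bbc3 and Bax stayed negative. Those of Trp53inp1 (-0.41 to -0.04), Zmat3 (-0.42 to -0.13) and Apaf1 (-0.29 to -0.10) also stayed negative but varied widely in size: Trp53inp1 and Apaf1 were nearest to 0 without WT replicate 1, and Zmat3 without WT replicate 5. Those of Tnfrsf10b (0.10 to 0.36) and Perp (0.05 to 0.48) stayed positive, and those of Fas and Aen turned once. The median over the 9 members, -0.21 with all libraries, was -0.09 without KO replicate 10 and -0.10 without WT replicate 1.

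**Figure D2:**
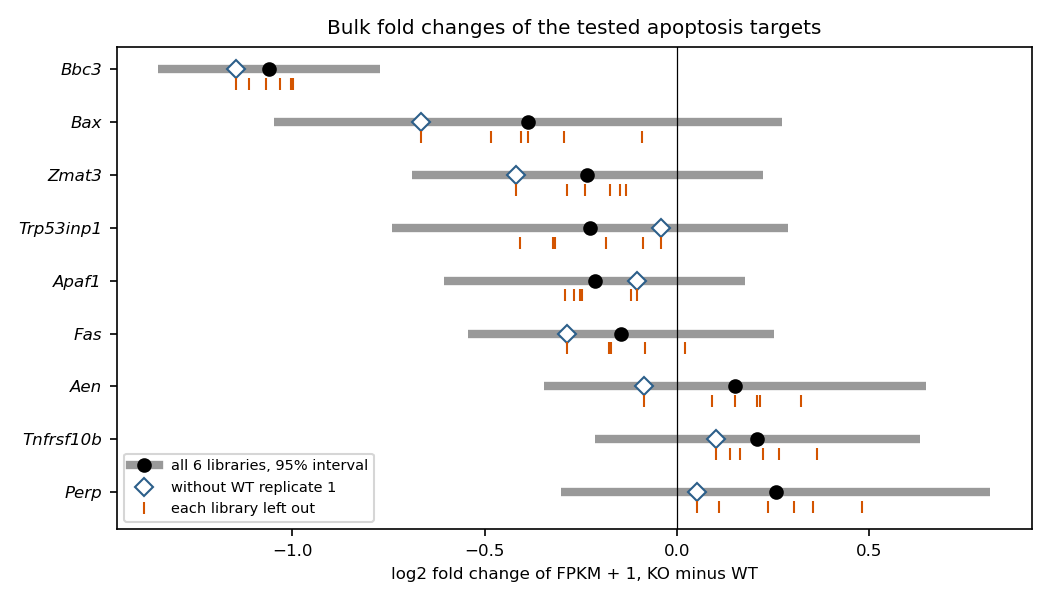
Log2 fold change of FPKM + 1, KO minus WT (horizontal axis), for the 9 tested genes: black points and grey bars give the fit with all 6 libraries and its 95% interval, diamonds the fit without WT replicate 1, and short orange ticks each fit with 1 library left out. The interval of Bbc3, -1.35 to -0.77, is the one that does not reach 0.

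By level, the order of the members in KO libraries was Perp (54.1 ± 10.3 FPKM), Bax (41.4 ± 5.57), Trp53inp1 (15 ± 3.76), Aen (13.5 ± 1.17), Fas (8.49 ± 0.696), Bbc3 (4.85 ± 0.471), Tnfrsf10b (1.92 ± 0.262), Apaf1 (1.18 ± 0.239), Zmat3 (1.08 ± 0.160) and Pmaip1 (0.585 ± 0.0313) (SD, n = 3). In WT libraries Bax (57.2 ± 23.2 FPKM) stood before Perp (46 ± 14.2) and Bbc3 (11.2 ± 1.25) before Fas (9.63 ± 2.33). Trp53inp1 (17.7 ± 4.41), Aen (12.4 ± 3.66), Tnfrsf10b (1.55 ± 0.505), Apaf1 (1.54 ± 0.355), Zmat3 (1.48 ± 0.511) and Pmaip1 (0.810 ± 0.282) kept their places among the others. Perp and Bax, Trp53inp1 and Aen, and Apaf1 and Zmat3 were neighbours whose ranges of 1 SD overlapped in both genotypes. In WT this also held for Aen and Bbc3, Bbc3 and Fas, Tnfrsf10b and Apaf1, and Zmat3 and Pmaip1. The change of place between Bbc3 and Fas thus lay within the WT spread.

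The genes whose bulk profile over the 6 libraries was closest to that of Bbc3, by the mean absolute difference of centred log2 values among genes with a mean of at least 5 FPKM, were Trp53 (0.122), Socs3 (0.134), Nfkbiz (0.168), H1f0 (0.174) and Ccng1 (0.178). Socs3, a feedback inhibitor of cytokine signalling, had 15.3, 21.4 and 19 FPKM in KO libraries, against 36.3, 41.7 and 30.8 FPKM in WT libraries. Ccng1, which encodes cyclin G1 and is a p53 target, had 33.5, 28.3 and 25.8 FPKM in KO libraries, against 40.8, 58.8 and 60.9 FPKM in WT libraries. Such a profile is what the measure selected for, and neither passed the threshold (limma adjusted p = 0.20 for Socs3 and 0.288 for Ccng1).

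Several of the other p53 targets, those of growth arrest, feedback and stress, had lower values in all KO libraries than in any WT library. Of 23 tested genes (26 listed) 0 passed, 15 had a negative fold change, 9 had KO libraries all below WT (10.2% of all tested genes) and 1 all above (9.04%), and the median log2 fold change was -0.18. At an unadjusted p under 0.05, 7 were lower and 2 higher, against 6.06% of all tested genes lower and 7.04% higher. Psrc1, a spindle protein gene, had 0.844, 0.406 and 0.01 FPKM in KO libraries, the last being the lowest value of the table, against 4.06, 5.13 and 9.85 FPKM in WT libraries (limma adjusted p = 0.151). Cdkn1a, the gene of p21, which halts the cell cycle, had 19.6, 21.3 and 18.0 FPKM in KO libraries, against 37.6, 40.02 and 63.9 FPKM in WT libraries (log2 fold change -1.18, limma adjusted p = 0.203). Phlda3, which encodes an inhibitor of Akt, had 6.64, 8.39 and 5.19 FPKM in KO libraries, against 12.6, 15.8 and 21.3 FPKM in WT libraries (limma adjusted p = 0.226). In these 3 genes the groups did not overlap. Without WT replicate 1, when 0.594% of all genes were called lower, 5 genes of this list fell: Psrc1, Cdkn1a, Phlda3, Ccng1 and Ephx1.

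Among the remaining Bcl-2 family promoters of apoptosis, 9 of 11 were tested, 0 passed (2 lower and 1 higher at an unadjusted p under 0.05), 6 had a negative fold change and the median was -0.05. Over all tested genes, 6.06% were lower and 7.04% higher at that p. Bmf, a BH3-only gene like Bbc3, had 3.88, 3.77 and 3.88 FPKM in KO libraries, against 7.89, 7.05 and 6.56 FPKM in WT libraries. Bik, another BH3-only gene, had 16.7, 18.0 and 15.8 FPKM in KO libraries, against 25, 35.3 and 44.4 FPKM in WT libraries. For both the groups did not overlap (limma adjusted p = 0.151 for Bmf and 0.276 for Bik), where 10.2% of all tested genes had KO below. Bok, a relative of Bax, ran the other way, with 18.0, 29 and 15.2 FPKM in KO libraries, against 15.5, 6.62 and 6.29 FPKM in WT libraries (limma adjusted p = 0.325); WT replicate 1 lay among the KO values. Without WT replicate 1, Bmf and Bik fell and Bok rose, where 0.594% of all genes fell and 2.82% rose. The inhibitors of the family, which Bbc3 and Pmaip1 bind, had 6 of 8 tested, 0 passed (1 lower and 0 higher at an unadjusted p under 0.05) and a median of -0.08. Bcl2l1 (Bcl-xL), the most abundant of the 3 named by rule, was at 40.7 ± 2.38 FPKM in KO and 44.1 ± 2.40 FPKM in WT (SD, n = 3 each). Bcl2a1a was at 1.32 ± 0.415 and Bcl2a1b at 7.43 ± 0.790 FPKM in KO, against 2.21 ± 0.511 and 10.4 ± 2.76 FPKM in WT; these are near-identical copies, so their reads may be split.

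Downstream of Apaf1, all 17 genes of the apoptosome, the caspases and their inhibitors were tested, with 0 past the threshold (2 lower and 2 higher at an unadjusted p under 0.05), 8 negative fold changes and a median of 0.04. Over all tested genes, 6.06% were lower and 7.04% higher at that p, which also stands beside the 2 lists that follow. Birc3, an inhibitor of apoptosis protein, was at 12.7 ± 2.22 FPKM in KO and 20.4 ± 2.73 FPKM in WT, with no overlap, where 10.2% of all tested genes had KO below. Endog, a mitochondrial nuclease gene, was at 20.5 ± 3.12 FPKM in KO and 12.4 ± 4.88 FPKM in WT. It rose without WT replicate 1 (limma adjusted p = 0.0158), when 2.82% of all genes did. Dffb, the caspase-activated DNase, was at 2.37 ± 0.546 FPKM in KO and 3.42 ± 0.346 FPKM in WT (SD, n = 3 each for all 3 genes). Next to Fas and Tnfrsf10b, 9 of 12 genes of death receptor signalling were tested, 0 passed (1 lower and 1 higher at an unadjusted p under 0.05), 5 had a negative fold change and the median was 0.00. Tnfrsf21 (death receptor 6) was at 86.2 ± 13.5 FPKM in KO and 59.3 ± 13.8 FPKM in WT, Tnfrsf1a at 29 ± 2.94 FPKM in KO and 35.4 ± 2.89 FPKM in WT, and Traf2, an adaptor, at 17.2 ± 1.86 FPKM in KO and 18.5 ± 0.532 FPKM in WT. Of the p53 cofactors and other p53-linked death genes, 11 of 13 were tested, 0 passed (0 lower and 1 higher at an unadjusted p under 0.05), 4 had a negative fold change and the median was 0.09. Trp73, a relative of Trp53 that is also known from ciliated cells, had 4.23, 5.15 and 2.64 FPKM in KO libraries, against 3.55, 0.985 and 0.724 FPKM in WT libraries. Like the summed ciliated cell markers, Trp73 was highest among WT in replicate 1, and so were Bok and Endog. The part of ciliated cells in these values was not tested. Dapk1 was at 52.4 ± 5.71 FPKM in KO and 64 ± 5.36 FPKM in WT, and Hipk2 at 9.59 ± 0.656 FPKM in KO and 12.0 ± 2.62 FPKM in WT.

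**Figure D3:**
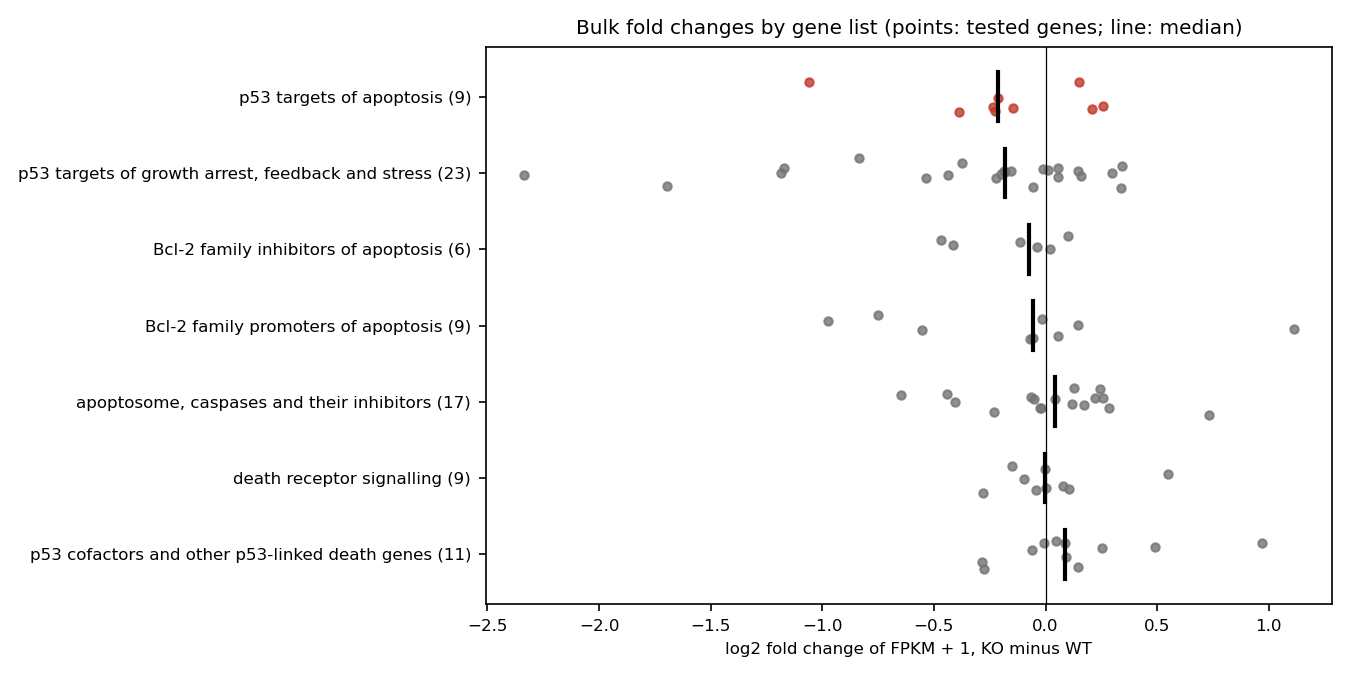
Bulk log2 fold change of FPKM + 1, KO minus WT (horizontal axis), of every tested gene of the apoptosis targets (red) and of 6 related lists (grey), with the median of each list as a vertical line. Medians lie between -0.21 for the apoptosis targets and 0.09 for the cofactors, and Bbc3 is the leftmost red point.

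Promoter windows of 300 bases around the RefSeq transcript start (GRCm38.p6) were at hand for 5 of the 10 genes, Bbc3, Bax, Fas, Aen and Apaf1. They were searched on both strands for the p53 decamer, the unit of which a p53 response element holds a pair. It was found in the windows of Bax and Aen and in none of those of Bbc3, Fas and Apaf1. Over all genes, 8.36% of 32851 windows hold it, and 9.55% of 27025 genes hold it in any of their windows. The stretches with the decamer in capitals are shown with the last 60 bases before the first Bbc3 start, since Bbc3 is the gene whose level differed most. The Bax stretch is chr7:45467080-45467109 on the minus strand, and its decamer begins 201 bases before the start. The Aen stretch is chr7:78895927-78895956 on the plus strand. Its decamer begins 121 bases before 1 start and at base 11 from another. The Bbc3 stretch is chr7:16309523-16309582 on the plus strand, inside the annotated span of the gene.
Bax: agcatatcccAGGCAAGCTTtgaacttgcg
Aen: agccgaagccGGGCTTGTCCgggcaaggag
Bbc3: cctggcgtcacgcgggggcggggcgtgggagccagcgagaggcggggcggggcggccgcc
Neither gene with a match separated the genotypes in bulk, and a match in letters is a description, not a binding site.

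In the single cells, values are TPM, in which each gene's share of a cell's transcripts is scaled by length, and a gene is called detected at a TPM of 1 or more. Of 64 cells labelled knockout that have a value column, 61 had at least 1000 detected genes and were kept, as were 66 of 72 WT cells. Trp53 was detected in 16 of 61 cells labelled knockout (26.2%, exact 95% binomial interval 15.8 to 39.1%). In WT cells it was detected in 4 of 66 (6.06%, 1.68 to 14.8%), so the order was the reverse of that in bulk. A value per gene does not show whether the transcript was intact, so these shares do not settle whether the labels hold. Each genotype is 1 chip, so no test between genotypes was made, the intervals cover counting error only, and any difference by genotype below is a difference between 2 chips labelled so. Per cell, 3580 genes were detected at the median on the chip labelled knockout, against 3130.5 on the WT chip, and ERCC spike-ins took 6.28% of TPM there, against 13.2% on the WT chip. The median difference over all genes was 0.25 on the log2(TPM + 1) scale, cells labelled knockout minus WT. The part of this depth gap in the differences was not tested.

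Cells were split by whether Sftpc, the surfactant gene of alveolar type 2 cells, or Scgb1a1, the secretory protein gene of club cells, had the higher TPM. This gave 15 Sftpc-dominant and 46 Scgb1a1-dominant cells labelled knockout, and 17 Sftpc-dominant and 49 Scgb1a1-dominant WT cells. The summed TPM of 19 other alveolar type 2 markers had a median of 42010 in Sftpc-dominant and 7903 in Scgb1a1-dominant cells labelled knockout, and of 47556 and 4187 in WT cells in the same order. For 13 other club markers the medians were 8840 in Sftpc-dominant and 66604 in Scgb1a1-dominant cells labelled knockout, and 2863 and 40367 in WT cells. Both states thus carried markers of the other, so they are ranges of dominance and are not called cell types here. Sftpc-dominant cells had fewer detected genes on both chips, with medians of 3196 against 3824 in cells labelled knockout and 2633 against 3154 in WT cells.

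Tnfrsf10b and Apaf1 were the members found most widely in single cells. Tnfrsf10b was detected in 57 of 61 cells labelled knockout (93.4%, interval 84.1 to 98.2%) and in 58 of 66 WT cells (87.9%, 77.5 to 94.6%). Its TPM ran from 0.05 over a median of 10.6 to 185 in cells labelled knockout and from 0 over 8.92 to 170 in WT cells. By state it was detected in 14 of 15 Sftpc-dominant and 43 of 46 Scgb1a1-dominant cells labelled knockout, and in 14 of 17 (82.4%) and 44 of 49 (89.8%) WT cells. Apaf1 was detected in 36 of 61 cells labelled knockout (59%, interval 45.7 to 71.4%) and in 37 of 66 WT cells (56.1%, 43.3 to 68.3%). Its median was 1.66 TPM in cells labelled knockout and 1.23 TPM in WT cells, close to the detection limit. By state it was at 9 of 15 Sftpc-dominant and 27 of 46 Scgb1a1-dominant cells labelled knockout, and at 11 of 17 and 26 of 49 WT cells.

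The most abundant bulk members were found in a minority of cells, at high values. Perp was detected in 23 of 61 cells labelled knockout (37.7%, interval 25.6 to 51%) and in 14 of 66 WT cells (21.2%, 12.1 to 33%). Where detected, its median was 22.9 TPM in cells labelled knockout and 23.9 TPM in WT cells. Among Scgb1a1-dominant cells it was detected in 20 of 46 labelled knockout (43.5%, 28.9 to 58.9%) against 11 of 49 WT (22.4%, 11.8 to 36.6%). Among Sftpc-dominant cells it was detected in 3 of 15 labelled knockout and 3 of 17 WT. Counting any TPM above 0, the shares were 50% of cells labelled knockout and 38.8% of WT cells among the Scgb1a1-dominant, and 33.3% and 23.5% in the same order among the Sftpc-dominant. Among cells with 2500 to 5000 detected genes, where depth is closer, the Scgb1a1-dominant shares were 43.9% of cells labelled knockout and 25.7% of WT cells. The intervals of the pair overlap.

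Bax was detected in 10 of 61 cells labelled knockout (16.4%, interval 8.15 to 28.1%) and in 13 of 66 WT cells (19.7%, 10.9 to 31.3%). Where detected, its median was 15.6 TPM in cells labelled knockout and 86.4 TPM in WT cells. All 13 WT cells with Bax were Scgb1a1-dominant (13 of 49, 26.5%, interval 14.9 to 41.1%), and 0 of 17 WT Sftpc-dominant cells had it, a count that allows a share of up to 17.6% by 3 counts of the total and 19.5% by the exact interval. On the chip labelled knockout, 1 of 15 Sftpc-dominant and 9 of 46 Scgb1a1-dominant cells had Bax, and the single Sftpc-dominant cell held its highest value, 380 TPM. Over all kept cells, the exact intervals of both states overlap on each chip. Within 2500 to 5000 detected genes the WT counts were 0 of 10 and 13 of 35.

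Trp53inp1 ran the other way by state. It was detected in 17 of 61 cells labelled knockout (27.9%, interval 17.1 to 40.8%) and in 13 of 66 WT cells (19.7%, 10.9 to 31.3%). Among cells labelled knockout it was in 7 of 15 Sftpc-dominant (46.7%, 21.3 to 73.4%) and 10 of 46 Scgb1a1-dominant cells (21.7%, 10.9 to 36.4%). Among WT cells it was in 5 of 17 Sftpc-dominant (29.4%, 10.3 to 56%) and 8 of 49 Scgb1a1-dominant cells (16.3%, 7.32 to 29.7%). The share was higher in Sftpc-dominant cells on both chips, and the intervals overlap on each chip. Sftpc-dominant cells had fewer detected genes, and the part of depth in these shares was not tested.

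Bbc3, the member with the largest bulk difference, was sparse in single cells. It was detected in 8 of 61 cells labelled knockout (13.1%, interval 5.84 to 24.2%) and in 8 of 66 WT cells (12.1%, 5.38 to 22.5%). Its highest TPM was 7.02 in cells labelled knockout and 12.9 in WT cells, and where detected its median was 1.96 TPM in cells labelled knockout and 5.15 TPM in WT cells. At a stricter limit of 5 TPM it was in 2 cells labelled knockout and 5 WT cells. By state it was in 4 of 15 Sftpc-dominant and 4 of 46 Scgb1a1-dominant cells labelled knockout, and in 2 of 17 and 6 of 49 WT cells.

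Pmaip1 was detected in 1 of 61 cells labelled knockout, at 24.7 TPM in a Scgb1a1-dominant cell, and in 0 of 66 WT cells, which allows a share of up to 4.55% by 3 counts of the total and 5.44% by the exact interval. Fas was detected in 7 of 61 cells labelled knockout (11.5%, interval 4.74 to 22.2%) and in 6 of 66 WT cells (9.09%, 3.41 to 18.7%). All 7 cells labelled knockout with Fas were Scgb1a1-dominant, 0 of 15 Sftpc-dominant ones having it, and the WT counts were 1 of 17 Sftpc-dominant and 5 of 49 Scgb1a1-dominant. Aen was detected in 6 of 61 cells labelled knockout (9.84%, interval 3.70 to 20.2%) and in 7 of 66 WT cells (10.6%, 4.37 to 20.6%). Its WT cells were likewise all Scgb1a1-dominant, 0 of 17 Sftpc-dominant against 7 of 49, while the chip labelled knockout had 1 of 15 and 5 of 46. Zmat3 was detected in 9 of 61 cells labelled knockout (14.8%, interval 6.98 to 26.2%) and in 9 of 66 WT cells (13.6%, 6.43 to 24.3%). Counting any TPM above 0, Zmat3 was in 53 cells labelled knockout and 55 WT cells, so most of its values lay between 0 and 1 TPM.

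**Figure D4:**
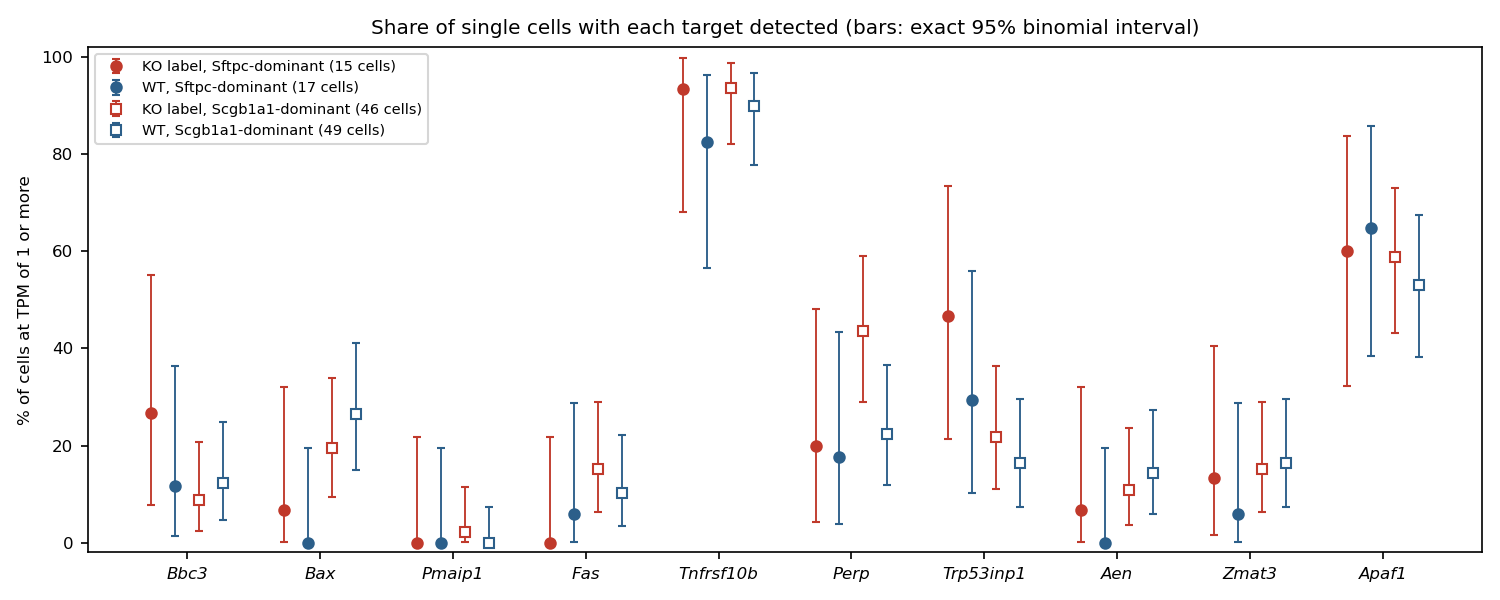
Share of cells in percent (vertical axis) with a TPM of at least 1 for each of the 10 genes, for Sftpc-dominant cells (filled circles) and Scgb1a1-dominant cells (open squares) of the chip labelled KO (red) and the WT chip (blue), with exact 95% binomial intervals. Tnfrsf10b and Apaf1 are the widest. Bax is at 0 of 17 WT Sftpc-dominant cells and 13 of 49 WT Scgb1a1-dominant cells. Within each gene, Bax included, all intervals overlap.

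By size, none of the members reached a difference of 1 between the chips in mean log2(TPM + 1), the level used to call a difference. For the 9 members found in 10% or more of the cells of a chip, 0 differences of that size were seen in either direction. Over 9486 genes, 8.03% were that much higher in cells labelled knockout and 0.137% that much lower. Of the p53 targets of growth arrest, feedback and stress, 18 of 26 were found as widely. Among these 18, 2 were that much higher and 2 that much lower. The largest member difference was that of Perp, at a mean of 1.68 in cells labelled knockout and 1.13 in WT cells, a difference of 0.55, followed by Bax, at 0.78 and 1.18 in the same order, a difference of -0.39. The other 7 lay between -0.12 for Bbc3 and 0.22 for Trp53inp1, and the median of the 9 was 0.08, against 0.25 over all genes. Over all cells of a chip, the differences of Perp stayed positive and those of Bax and Bbc3 negative under every alternative scale or choice of cells. Split by state they did not all keep these signs. In Sftpc-dominant cells, cells labelled knockout minus WT, Perp differed by -0.24 and Bax by 0.59, and within 2500 to 5000 detected genes by -1.03 and 0.86. With a 10-fold margin between Sftpc and Scgb1a1, Perp differed by 0.0033 and Bax by 0.037. These values rest on few cells. Bax was detected in 1 of 15 Sftpc-dominant cells labelled knockout and 0 of 17 WT ones, and Perp in 3 on each chip. In Scgb1a1-dominant cells Perp differed by 0.80 and Bax by -0.74, and within 2500 to 5000 detected genes by 0.57 and -1.30. Bbc3 differed by -0.14 in Sftpc-dominant and -0.11 in Scgb1a1-dominant cells. Pmaip1, Fas, Tnfrsf10b, Aen and Apaf1 changed sign under at least 1 alternative. Trp53inp1 and Zmat3 were negative only when each cell was centred, a scaling that moves every gene by -0.33, and were positive in all other settings.

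Between the states, 0 of 9 members passed a difference of 1 in the same direction on both chips, where 1.42% of 8780 genes were higher and 5.05% lower in Sftpc-dominant cells. The differences of mean log2(TPM + 1), Sftpc-dominant minus Scgb1a1-dominant, were negative on both chips for Perp (-1.46 in cells labelled knockout and -0.42 in WT cells), Fas (-0.77 and -0.42), Bax (-0.25 and -1.58), Aen (-0.27 and -0.59) and Zmat3 (-0.14 and -0.24). They were positive on both for Trp53inp1 (1.13 in cells labelled knockout and 0.35 in WT cells), Apaf1 (0.04 and 0.55) and Bbc3 (0.11 and 0.13). Tnfrsf10b had 0.19 in cells labelled knockout and -0.26 in WT cells, but 0.99 and 0.50 within 2500 to 5000 detected genes, where the sign on the WT chip turned. Under the alternatives the sign on the chip labelled knockout turned for Bax (to 0.0068), Zmat3 (to 0.042) and Apaf1 (to -0.054). Perp, Fas, Aen, Trp53inp1 and Bbc3 kept theirs on both chips, but 3 of them came as near to 0. At a pseudocount of 10, Bbc3 was at 0.0068 in cells labelled knockout and Trp53inp1 at 0.040 in WT cells. Within 2500 to 5000 detected genes, Perp was at -0.025 in WT cells. The median over all genes was -0.10 in cells labelled knockout and -0.11 in WT cells. Perp, Bax and Trp53inp1 thus passed a size of 1 on 1 chip each, with the same sign but a smaller difference on the other, and whether the state difference itself differs between chips was not tested.

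**Figure D5:**
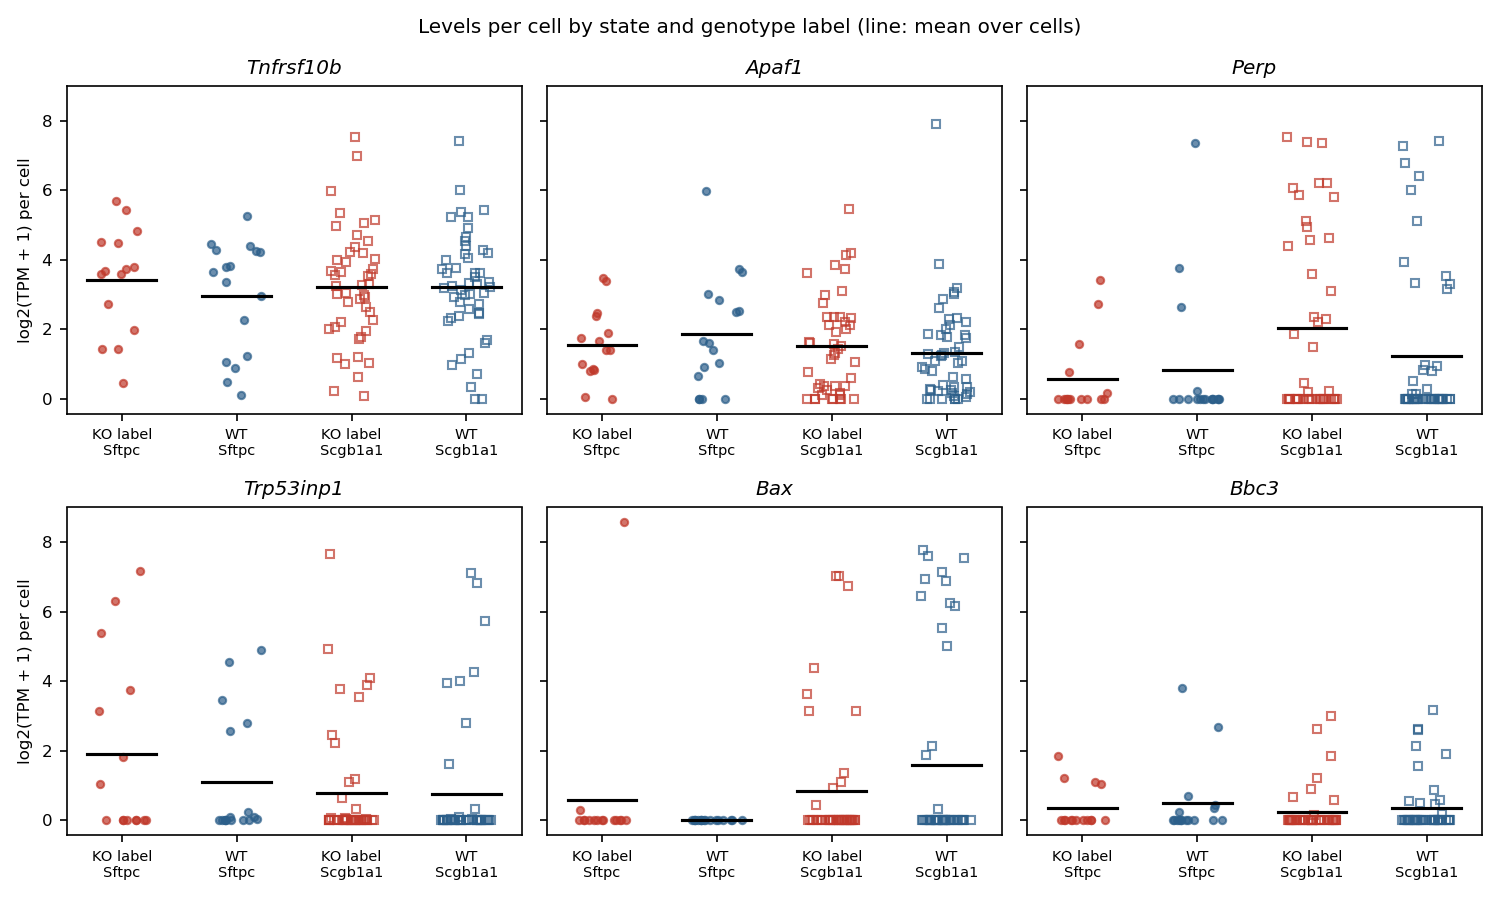
Level per cell as log2(TPM + 1) (vertical axis) of 6 of the genes in Sftpc-dominant and Scgb1a1-dominant cells of the chip labelled KO (red) and the WT chip (blue); each point is a cell and each line the mean over cells. Tnfrsf10b is above 0 in nearly all cells, at up to 50.5 TPM in Sftpc-dominant and 185 TPM in Scgb1a1-dominant cells, Bax is at 0 in the 17 WT Sftpc-dominant cells, and Bbc3, at 0 in most cells, has the lowest maximum of the 6 genes.

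Within a cell, few members were found together. The median number of the 10 genes detected was 3 in cells labelled knockout (0 to 5) and 2 in WT cells (0 to 7), and 1 cell labelled knockout and 3 WT cells had none. Tnfrsf10b and Apaf1 were detected together in 36 cells labelled knockout and 34 WT cells. Perp was with Tnfrsf10b in 22 cells labelled knockout and 14 WT cells. Bbc3 and Bax, whose products act in sequence at the mitochondrion, were together in 2 cells labelled knockout and 2 WT cells. Perp and Trp53inp1 were together in 9 cells labelled knockout and 2 WT cells. Such counts depend on how widely each gene was detected. Whether they differ from those expected from the share of each gene was not tested.

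The order of the members differed between the assays, which are both scaled by length but use different quantities. Tnfrsf10b had a bulk mean of 1.92 FPKM in KO and 1.55 FPKM in WT, and a mean over cells of 17.4 TPM in cells labelled knockout and 14.6 TPM in WT cells. Bax had a bulk mean of 41.4 FPKM in KO and 57.2 FPKM in WT, and means over cells of 13 TPM in cells labelled knockout and 19.5 TPM in WT cells. Aen, Fas and Bbc3 had means over cells of 6.02, 7.20 and 0.398 TPM in cells labelled knockout and of 8.95, 9.47 and 0.739 TPM in WT cells. Tnfrsf10b was thus among the lower members in bulk and, beside Perp and Bax, among the higher ones in single cells, on both chips.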

How the data were processed

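The submitters' processing notes name TopHat, Bowtie2, Cufflinks and the build mm10 for the FPKM values that the authors deposited; versions and the use of strand are not given in the sources used here. For the deposited TPM values of single cells these notes name Bowtie 1.1.1, RSEM 1.2.20 and GRCm38. From the deposited FPKM, log2(FPKM + 1) was fitted in R 4.3.3 with limma 3.58.1 (KO minus WT; trend and robust options of eBayes), two-sided, with Benjamini-Hochberg adjustment over 11957 genes at 1 FPKM or more in at least 3 of 6 libraries; 12 genes (Scgb1a1 and Sftpc included) have an entry marked in place of a value and were not fitted. FPKM and TPM carry no counts, so no count test was used. The script was tested on simulated data. The labels name no separate animals, and p-values therefore describe how these libraries vary, which may be technical. Depth was estimated from the steps of low FPKM values, assuming fragments of 200 nucleotides, and is approximate. It limits Pmaip1, Apaf1, Zmat3 and Tnfrsf10b most. In KO libraries it also limits Bbc3, with an estimated 55 to 200 reads, against 53 to 180 for Zmat3.

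Wells with a debris or valve remark (3 labelled knockout, 1 WT) and cells with under 1000 detected genes (3 and 6) were left out, and 2 cell samples labelled knockout were matched to no column and are not analysed here. Doublets were removed by inspecting the wells, per the labels' protocols. Shares have exact Clopper-Pearson intervals at 95% from scipy 1.17.1, and a count of 0 is taken to allow 3 cells. Alternatives were other pseudocounts, no filter, other scalings, library weights, each library left out, other limits of detection, closer depth, spike-in removal and a stricter state margin. Named genes were all members, Trp53, the 3 tested genes of smallest unadjusted p in each related list, and the 5 genes nearest to Bbc3. The members and lists were chosen with earlier results of these data known. Promoters are from RefSeq and coordinates from GENCODE.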

Additional observations from a re-analysis of the deposited data

Results flagged for a closer look

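Members of the set appear in wells outside the comparisons. In the off-chip positive control of the chip labelled knockout, which had 7953 detected genes, 5 members were at a TPM of 1 or more: Perp at 18.6, Fas at 12.0, Bax at 10.01, Trp53inp1 at 2.61 and Zmat3 at 1.48 TPM. Tnfrsf10b was at 0.74 and Apaf1 at 0.38 TPM there, under the detection limit, although they were the most widely detected members in single cells. The negative control had 2 detected genes and 0 members. In the 4 wells with a debris or valve remark, 5 members reached a TPM of 1 in at least 1 well. Tnfrsf10b did so in all 4 (3.81, 13.3 and 12.9 TPM in wells labelled knockout and 11.1 TPM in the WT well), and Perp, Apaf1, Fas and Aen in fewer. These are single wells with no replicate. Bulk groups of 3 libraries are too small for the test for a sample far from the others.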

How the results depend on the processing

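No paired analysis was possible because the bulk replicate numbers are not shared between KO and WT. The count of genes called in bulk, 1 with all libraries, was 2 at a pseudocount of 0.1, 0 at 10, 3 with no filter and 913 with arrayWeights, and ran from 1 to 408 when each library was left out. The count of members called, 0 with all libraries, was 1 (Bbc3) with arrayWeights and 0 to 1 when each library was left out. The count of members whose libraries did not overlap was 1 to 4 in those fits, the highest without WT replicate 1, when 17.3% of all genes had KO below and 18.3% KO above. The median log2 fold change of the members, -0.213, stayed negative and moved by less than the spread between libraries (0.18) in every setting, but shrank to -0.088 without KO replicate 10, -0.103 without WT replicate 1, -0.133 without WT replicate 5, -0.072 with arrayWeights and -0.050 at a pseudocount of 10. Signs turned for Fas, which ran from -0.285 to 0.022 over the fits without 1 library (0.022 without WT replicate 5), for Aen, from -0.086 to 0.322 (-0.086 without WT replicate 1), and for Perp with arrayWeights (-0.063); the cause was not tested. In all, 103 of 108 alternative fold changes of members kept direction and side of the threshold. The adjusted p of Bbc3 ran from 0.00583 with arrayWeights to 0.601 with no filter. In single cells, the counts past a difference of 1 stayed at 0 in each setting, by genotype over all cells and by state on both chips; 19 of 60 alternative shares left the interval of the main share. Few positive cells limit all shares but those of Tnfrsf10b and Apaf1.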
